A study of Mus musculus with 12 samples.

Results

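Conditional loss of Tbr2 (T-box brain protein 2, encoded by *Eomes*) was examined in mouse neocortex at E14.5, in the 5 arrays that carry the genotype labels Tbr2 conditional knockout and Wild type, out of 12 arrays in the series. There were 2 Tbr2 cKO embryos and 3 controls, with 1 array for the neocortex of each embryo. The other arrays, from 3 Tbr1/2 dKO and 4 Tbr1 KO embryos, entered the same linear model and provided a second comparison with and without Tbr2. Tbr1/2 dKO embryos lacked Tbr1 and carried the floxed *Tbr2* alleles (2F/2F) with the Nes11-Cre transgene, in which Nestin sequences drive Cre in neural progenitors. Control embryos had an intact *Tbr1* gene and *Tbr2* alleles without recombination. The allele combination of the Tbr2 cKO embryos is described in an earlier publication that was not used here, and the sources used here do not give the sex or strain of the embryos.

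Tbr2 is a T-box transcription factor of intermediate progenitors (IPs), the transit-amplifying cells that arise from radial glial progenitors (RGPs) and divide in the subventricular zone to give rise to glutamatergic projection neurons. It stands between Pax6, a homeodomain factor of RGPs, and Tbr1, a T-box factor that appears as early projection neurons become postmitotic, and new neurons that leave the IP stage turn on genes for migration, axon guidance and laminar identity. Tbr2 is also expressed in some Cajal-Retzius cells, early neurons of the marginal zone. Values are log2 intensities after RMA, so that a difference of 1 is a doubling, and levels of different genes are not compared. In RNA from whole neocortex, fewer cells of a type and less RNA per cell cannot be told apart. The tissue label was checked against cortical markers: *Neurod6*, a factor of cortical projection neurons, lay at 12.89 and 12.97 in Tbr2 cKO and at 12.98 to 13.11 in controls, and *Fezf2*, a factor of deep-layer neurons, at 12.86 and 12.88 in Tbr2 cKO and at 12.86 to 12.91 in controls.

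*Eomes* itself was measured at 9.19 and 8.20 in Tbr2 cKO, against 12.10, 11.70 and 12.13 in controls. Both mutant arrays lay far below every control, and replicate 1 retained more signal than replicate 2. The mean was 9.73-fold lower, a change of -3.28 with both mutant arrays, of -3.77 without replicate 1 and of -2.79 without replicate 2. The sources used here do not say whether the probes lie in the deleted part of the gene.

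Among 14860 genes with 1 probeset symbol, 37 were higher and 60 lower in Tbr2 cKO than in control neocortex at a Benjamini-Hochberg adjusted p under 0.05 from limma, referred to as called. These are 0.653% of the genes tested, 0.249% higher and 0.404% lower. At an unadjusted p under 0.05, 482 genes (3.24%) were higher and 1011 (6.80%) lower. In all 97 called genes both Tbr2 cKO arrays lay beyond all 3 controls, which was so for 28.9% of all genes tested. The genes were called on these same arrays, so that this follows largely from the calls and adds no support to them. Of the 97, 38 changed by more than 1 on the log2 scale. The 2 mutant embryos were not alike in tissue from around the cortex. The count of called genes fell to 43, 55 and 55 when a single control array was dropped (replicates 1, 2 and 3 in turn). It also fell when Tbr2 cKO replicate 1 or replicate 2 was left out, which leaves 1 mutant array. Whether the surrounding tissue had a part in that fall was not tested. Of the 97 genes, 26 were called without replicate 1, 31 without replicate 2, and 22 in both cases. No called gene changed sign when either mutant array was left out. This was fixed in advance, since both arrays lay beyond all controls in each of them. With the arrays centred on their medians 49 of 100 calls were higher, against 37 of 97 here.

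Genes of axon guidance and cell adhesion held several of the largest decreases. *Unc5d*, a netrin and Flrt receptor that marks the subventricular zone, had values of 9.12 and 8.86 in Tbr2 cKO, against 10.96, 11.00 and 10.97 in controls. The controls differed by less than 0.05 and the mutants lay far below them, a change of -1.99 (SE 0.10, adjusted p = 8.84e-06). *Robo2*, a receptor for Slit proteins that repel growing axons and migrating neurons, had values of 10.19 and 10.21 in Tbr2 cKO and 11.97, 11.99 and 11.82 in controls, a change of -1.72 (SE 0.22, adjusted p = 0.00484). *Robo2* was not called without Tbr2 cKO replicate 1 (adjusted p = 0.075), although its change was -1.71 there. *Dcc*, the netrin receptor that mediates attraction, went the other way, with 12.66 and 12.70 in Tbr2 cKO and 12.07 to 12.32 in controls (0.51, SE 0.10, adjusted p = 0.0409). *Dcc* lost its call in 14 of 24 alternatives. Of 22 measured netrin, Slit, Robo and Flrt genes, *Dcc* was the only one called as higher, and *Unc5d* and *Robo2* the only ones called as lower. The median change of the group was -0.02, against -0.01 over all genes.

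Receptors of the semaphorin and ephrin systems showed smaller decreases. *Plxna4*, a plexin that transmits semaphorin signals, had values of 10.81 and 10.71 in Tbr2 cKO and 11.97, 11.94 and 11.70 in controls. All mutant values were about 1 unit lower, and the change of -1.11 (SE 0.12, adjusted p = 0.00125) was called in each alternative that tested it. *Epha3*, an ephrin-A receptor, had 11.31 and 11.35 in Tbr2 cKO against 11.88, 11.76 and 11.72 in controls, a change of -0.46 (SE 0.06, adjusted p = 0.00795) that lost its call in 6 of 24 alternatives. The other 27 of the 29 genes in this group were not called in either direction.

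Of 20 classical cadherin and protocadherin genes, 3 were called as lower and none as higher. *Cdh8*, a cadherin enriched in rostral cortex, had values of 8.61 and 8.80 in Tbr2 cKO, against 10.71, 10.65 and 10.62 in controls. The groups were separated by more than 1.8 units at their closest arrays, and the change was -1.95 (SE 0.16, adjusted p = 0.000194). *Cdh10* had 8.24 and 8.58 in Tbr2 cKO and 9.18 to 9.28 in controls (-0.81, SE 0.12, adjusted p = 0.0139). *Cdh12* had 7.56 and 7.74 in Tbr2 cKO and 8.16 to 8.42 in controls (-0.67, SE 0.10, adjusted p = 0.0138). Without Tbr2 cKO replicate 1, *Cdh10* and *Cdh12* had adjusted p of 0.215 and 0.223 and were not called, whereas *Cdh8* remained called (0.0052). Cadherins are calcium-dependent adhesion molecules, and the median change over the 20 genes was -0.09.

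**Figure D1:**
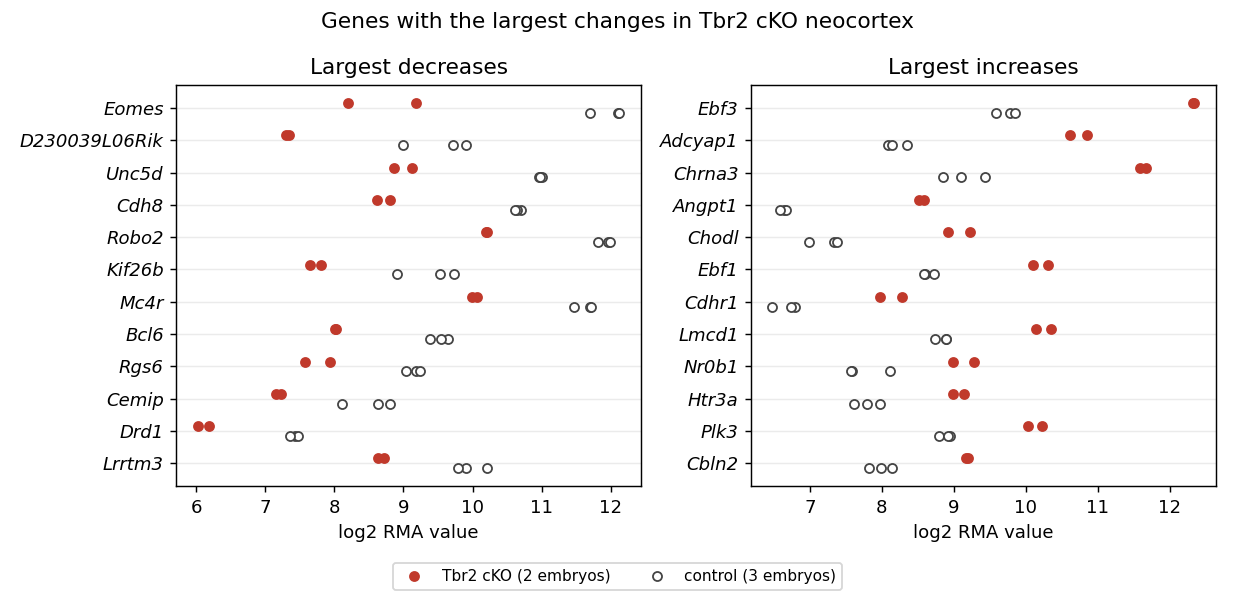
Log2 RMA values of the 12 called genes with the largest decreases (left) and the 12 with the largest increases (right) in Tbr2 cKO neocortex, 1 point for each embryo, filled red for the 2 Tbr2 cKO embryos and open for the 3 controls. In all 24 genes both Tbr2 cKO embryos lie on 1 side of all controls, which was a condition for showing them, and for *Eomes* the 2 mutant points are 0.98 apart.

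Signalling genes were found among the decreases too. *Mc4r*, a melanocortin receptor, had values of 10.06 and 9.99 in Tbr2 cKO, against 11.47, 11.71 and 11.71 in controls (-1.60, SE 0.14, adjusted p = 0.000271). *Rgs6*, a regulator of G protein signalling, had 7.57 and 7.94 in Tbr2 cKO and 9.18, 9.24 and 9.04 in controls (-1.40, SE 0.12, adjusted p = 0.000271). *Bcl6*, a zinc finger transcriptional repressor that promotes neurogenesis, had 8.01 and 8.02 in Tbr2 cKO and 9.38, 9.65 and 9.54 in controls (-1.51, SE 0.11, adjusted p = 0.000137). In these 3 genes the 2 mutant embryos lay well below the lowest control, and each was called in all alternatives that tested it. *Drd1*, the D1 dopamine receptor gene, had lower values of 6.02 and 6.18 in Tbr2 cKO and 7.36 to 7.48 in controls (-1.32, SE 0.20, adjusted p = 0.0134), and lost its call in 7 of 23 alternatives.

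The largest decrease after *Eomes* belonged to the RIKEN transcript *D230039L06Rik*, with 7.29 and 7.34 in Tbr2 cKO and 9.90, 9.00 and 9.72 in controls (-2.22, SE 0.31, adjusted p = 0.00772). Control replicate 2 lay below the other controls, as it did for *Kif26b*, a kinesin family gene, with 7.65 and 7.81 in Tbr2 cKO and 9.73, 8.91 and 9.53 in controls (-1.66, SE 0.27, adjusted p = 0.0198). The same was seen for *Cemip*, a hyaluronan-binding protein gene, with 7.15 and 7.22 in Tbr2 cKO and 8.80, 8.11 and 8.64 in controls (-1.33, SE 0.25, adjusted p = 0.0457). *Lrrtm3*, a leucine-rich repeat protein of synapses, had 8.71 and 8.63 in Tbr2 cKO and 9.78 to 10.21 in controls (-1.30, SE 0.18, adjusted p = 0.00767). Without Tbr2 cKO replicate 1 none of these 4 was called, with adjusted p of 0.109, 0.229, 0.352 and 0.0842 in the order given, and the fold changes stayed between -1.30 and -2.20.

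Among genes of differentiated cortical neurons, *Slc17a7*, the vesicular glutamate transporter VGLUT1, had values of 9.33 and 9.53 in Tbr2 cKO, against 10.86, 10.54 and 10.61 in controls (-1.24, SE 0.23, adjusted p = 0.0345). It was the 1 called gene of 25 glutamate and GABA receptors and transporters, and lost its call in 11 of 24 alternatives. *Slc17a6*, which encodes VGLUT2, had a change of 0.05. The deep-layer neuron genes *Nfe2l3*, a bZIP transcription factor, and *Wnt7b*, a Wnt ligand, fell by 1.03 (SE 0.14, adjusted p = 0.00672) and by 0.86 (SE 0.13, adjusted p = 0.0134), and no gene of this list was called as higher. The calls were lost in 2 of 23 alternatives for *Nfe2l3* and in 7 of 24 for *Wnt7b*. *Nfe2l3* had 8.38 and 8.79 in Tbr2 cKO and 9.52 to 9.66 in controls, and *Wnt7b* had 9.76 and 9.82 in Tbr2 cKO and 10.58 to 10.70 in controls. The median of the 17 deep-layer genes was -0.15, with 6 of them above 0, and *Fezf2* had a change of -0.01. At an unadjusted p under 0.05, 1 of the 17 was higher and 7 were lower, against 3.24% and 6.80% of all genes. *Tbr1*, a member of the list, had lower values of 10.39 and 10.57 in Tbr2 cKO and 11.01, 10.96 and 10.88 in controls (-0.47, SE 0.10, adjusted p = 0.0693). It missed the threshold here and passed it in 4 of 24 alternatives. None of the 13 upper-layer genes was called (median -0.16), with *Pou3f2*, a POU factor, at -0.41 and *Ptn*, the gene of the growth factor pleiotrophin, at 0.20.

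The largest increases were led by *Ebf3*, an early B-cell factor family gene expressed in Cajal-Retzius cells. It had values of 12.34 and 12.32 in Tbr2 cKO, against 9.58, 9.78 and 9.85 in controls, 6.04-fold higher on average (2.59, SE 0.21, adjusted p = 0.000188). Its relative *Ebf1* had 10.31 and 10.09 in Tbr2 cKO and 8.73, 8.59 and 8.58 in controls (1.57, SE 0.29, adjusted p = 0.0412), but was not called in 13 of 24 alternatives, among them those without either mutant array. *Ebf2* was not called, with 9.47 and 9.62 in Tbr2 cKO and 8.22 to 8.44 in controls (1.25, SE 0.25, adjusted p = 0.0554). The other Cajal-Retzius genes were not called: *Reln*, the gene of the secreted glycoprotein that defines these cells, had lower values of 11.39 and 11.32 in Tbr2 cKO and 11.70 to 11.74 in controls (-0.37, SE 0.25, adjusted p = 0.687), *Trp73* had a change of 0.07, and *Lhx5* one of 0.18. Of 14 measured genes of this list 2 were called as higher and none as lower (median 0.19). The list shares *Tbx18* with the meningeal list and *Rspo3* with the cortical hem list.

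Neuropeptide genes changed in both directions. *Adcyap1*, which encodes the neuropeptide PACAP, had values of 10.62 and 10.85 in Tbr2 cKO, against 8.35, 8.08 and 8.15 in controls, 5.83-fold higher (2.54, SE 0.15, adjusted p = 2.17e-05). Its receptor gene *Adcyap1r1* had a change of 0.02. *Nxph4*, a neurexophilin expressed in subplate neurons, had 11.81 and 11.88 in Tbr2 cKO and 10.85 to 11.00 in controls (0.93, SE 0.07, adjusted p = 0.000137), and was the 1 called gene of 12 subplate markers (median -0.02). The neurexophilin *Nxph3*, by contrast, fell by 0.62 (SE 0.09, adjusted p = 0.0116), as did the cholecystokinin gene *Cck* by 0.83 (SE 0.15, adjusted p = 0.0405). *Cck* lost its call in 14 of 23 alternatives, and *Nxph3* was not called without Tbr2 cKO replicate 1 (adjusted p = 0.194) or replicate 2 (0.0571). *Tacr3*, the neurokinin B receptor gene, had a difference of 2.20 without being called (SE 0.60, adjusted p = 0.181), with 8.86 and 9.50 in Tbr2 cKO and 6.62 to 7.58 in controls. Of 31 measured neuropeptide and hormone receptor genes, with *Nxph4* and the receptor gene *Mc4r* among them, 2 were called as higher and 3 as lower. Their median was -0.04.

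*Chrna3*, a nicotinic acetylcholine receptor subunit, had values of 11.59 and 11.67 in Tbr2 cKO and 8.84, 9.09 and 9.44 in controls, which is 5.67-fold higher (2.50, SE 0.35, adjusted p = 0.00885). It was not called without Tbr2 cKO replicate 1 (adjusted p = 0.109) or replicate 2 (0.0804), where its change was 2.54 and 2.46. The genes *Chrna5* and *Chrnb4*, which lie beside it in a cluster, were higher by 0.62 (SE 0.13, adjusted p = 0.0614) and by 0.95 (SE 0.21, adjusted p = 0.0959), and were not called. In each of them both mutant arrays lay above all controls, as in 10.9% of all genes tested. The other 8 measured subunits had changes from -0.15 to 0.50. *Htr3a*, the ionotropic serotonin receptor subunit, had 8.98 and 9.14 in Tbr2 cKO and 7.62 to 7.98 in controls (1.27, SE 0.15, adjusted p = 0.00263). The potassium channel gene *Kcnd3* was the 1 called gene of 28 listed potassium and sodium channel genes. It had 11.12 and 11.02 in Tbr2 cKO and 10.44 to 10.49 in controls (0.60, SE 0.11, adjusted p = 0.0381), and lost its call in 13 of 24 alternatives. Outside the list, the potassium channel genes *Kcnv1* and *Kcnh3* were called as lower (-0.76 and -0.56, adjusted p = 0.0459 and 0.0342). Each of these lost the call in at least 1 alternative.

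Further increases included a range of secreted and nuclear proteins. *Angpt1*, the angiopoietin ligand of the Tie2 receptor, had values of 8.52 and 8.59 in Tbr2 cKO, against 6.64, 6.67 and 6.59 in controls (1.92, SE 0.29, adjusted p = 0.0133), and lost its call in 5 of 23 alternatives. None of 14 endothelial genes was called, and the gene of its receptor, *Tek*, had a change of 0.30. *Chodl*, a C-type lectin domain gene, had 8.91 and 9.22 in Tbr2 cKO and 6.99 to 7.38 in controls (1.83, SE 0.18, adjusted p = 0.000752), and *Cdhr1*, a cadherin-related gene, 8.27 and 7.97 in Tbr2 cKO and 6.48 to 6.79 in controls (1.45, SE 0.22, adjusted p = 0.0135). *Cdhr1* lost its call in 5 of 23 alternatives, and *Chodl* in none. *Lmcd1*, a LIM domain gene, rose by 1.40 (SE 0.14, adjusted p = 0.000822) and *Plk3*, a polo-like kinase, by 1.24 (SE 0.10, adjusted p = 0.000194), and both were called in every alternative that tested them. The increases in *Nr0b1*, an orphan nuclear receptor gene (1.37, SE 0.26, adjusted p = 0.0434), and *Cbln2*, a cerebellin that bridges synapses (1.20, SE 0.23, adjusted p = 0.0434), lost the call in 13 and 15 of 23 alternatives.

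Genes of the IP stage were examined as a list of 23. *Nhlh1*, a neuronal bHLH factor of late IPs and new neurons, rose, with 13.23 and 13.20 in Tbr2 cKO and 12.08 to 12.28 in controls (1.03, SE 0.08, adjusted p = 0.000188), whereas *Eomes* and *Unc5d* fell. The remaining 20 genes were not called. *Insm1*, a zinc finger factor of basal progenitors, had 10.65 and 10.87 in Tbr2 cKO and 10.40 to 10.55 in controls (0.30, SE 0.12, adjusted p = 0.403), and *Neurog2*, the proneural factor, had a change of 0.00. At an unadjusted p under 0.05, 7 IP genes were higher and 3 lower, against 3.24% and 6.80% of all genes, and the median of the list was 0.07. *Gadd45g*, a stress-response gene transiently expressed in differentiating progenitors, was higher by 0.42 (SE 0.09, adjusted p = 0.0781).

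None of 24 RGP genes was called, and their median was 0.13. At an unadjusted p under 0.05, 5 were higher and 1 lower, against 3.24% and 6.80% of all genes. *Pax6* had higher values of 10.93 and 10.96 in Tbr2 cKO and 10.48 to 10.60 in controls (0.41, SE 0.09, adjusted p = 0.0771), which missed the threshold here and passed it in 6 of 24 alternatives. *Hes5*, a Notch target that maintains progenitors, had 11.40 and 11.33 in Tbr2 cKO and 10.94 to 11.20 in controls (0.33, SE 0.12, adjusted p = 0.354). *Sox2*, a pan-progenitor factor, had a change of 0.05. Of 23 listed Notch pathway genes none was called. At an unadjusted p under 0.05, 5 of them were higher and none lower, against 3.24% and 6.80% of all genes. *Mfng*, a fringe glycosyltransferase gene, was among the 5, at 0.31, as was *Hes5*. The lists overlap, since *Hes5* is also in the RGP list and *Mfng* in the IP list, so that these counts are not independent. Outside the Notch list, the Notch-related genes *Maml3*, *Tle1* and *Dtx1* were called, with changes of 0.47, 0.46 and -0.55. For cell cycle genes, none of 20 S phase genes, 22 G2 and mitosis genes and 14 genes of cell cycle exit was called. Of the G2 and mitosis genes, 21 of 22 had a positive change, beside 6775 of 14860 genes tested, with a median of 0.14. The highest, *Hmmr*, a spindle-associated protein gene, was at 0.32 (SE 0.14, adjusted p = 0.488), and the mitotic kinesin gene *Kif11* was at 0.24. The S phase genes with the smallest p were *Tyms* at 0.17 and *Rrm1* at 0.12, which act in nucleotide synthesis, and the cell cycle exit gene *Trp53inp1* was at -0.40 (adjusted p = 0.136).

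Rostrocaudal patterning genes showed 1 call. *Cdh8* fell, and *Etv5*, an ETS factor induced by Fgf signalling at the rostral pole, had 8.58 and 8.77 in Tbr2 cKO and 9.44 to 9.49 in controls (-0.80, SE 0.16), which missed the threshold (adjusted p = 0.0554). The median of 12 rostral genes was -0.29, with 2 above 0, and that of 13 caudal genes was 0.15, with 12 above 0. Over all genes the median was -0.01, with 6775 of 14860 above 0. In the caudal list, *Emx2*, a homeobox gene of caudal and medial progenitors, had 11.31 and 11.21 in Tbr2 cKO and 10.50, 10.66 and 11.05 in controls (0.52, SE 0.19, adjusted p = 0.361), so that control replicate 3 was close to the mutants. *Lhx9* and *Wnt8b* of the same list are also medial genes, and *Wnt8b* had 9.15 and 8.69 in Tbr2 cKO and 6.95, 8.76 and 9.04 in controls, with control replicate 1 far below the rest. The medial pallium list, of which none of 9 genes was called, had means of 10.28 and 10.17 in Tbr2 cKO and 9.64, 9.92 and 10.19 in controls. The part of the medial tissue in the caudal values was not tested.

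Among epigenetic factor (EF) genes grouped by cell type, 1 of 14 EF genes of IPs and 1 of 14 of neurons were called, both lower, and none of 13 of RGPs. *A330008L17Rik*, an lncRNA, had 7.12 and 7.16 in Tbr2 cKO and 8.31 to 8.35 in controls (-1.18, SE 0.12). *Smarcd3*, a subunit gene of neuronal BAF chromatin remodeling complexes, had 10.51 and 10.57 in Tbr2 cKO and 10.99 to 11.10 in controls (-0.49, SE 0.08, adjusted p = 0.0144), and lost its call in 8 of 24 alternatives. The neuronal list had a median of -0.11 and 2 of 14 genes above 0, beside 6775 of 14860 genes tested. *Dnmt3a*, a de novo DNA methyltransferase gene, was higher by 0.19 (SE 0.07, adjusted p = 0.338) and *Dnmt3b* by 0.15, and neither was called.

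**Figure D2:**
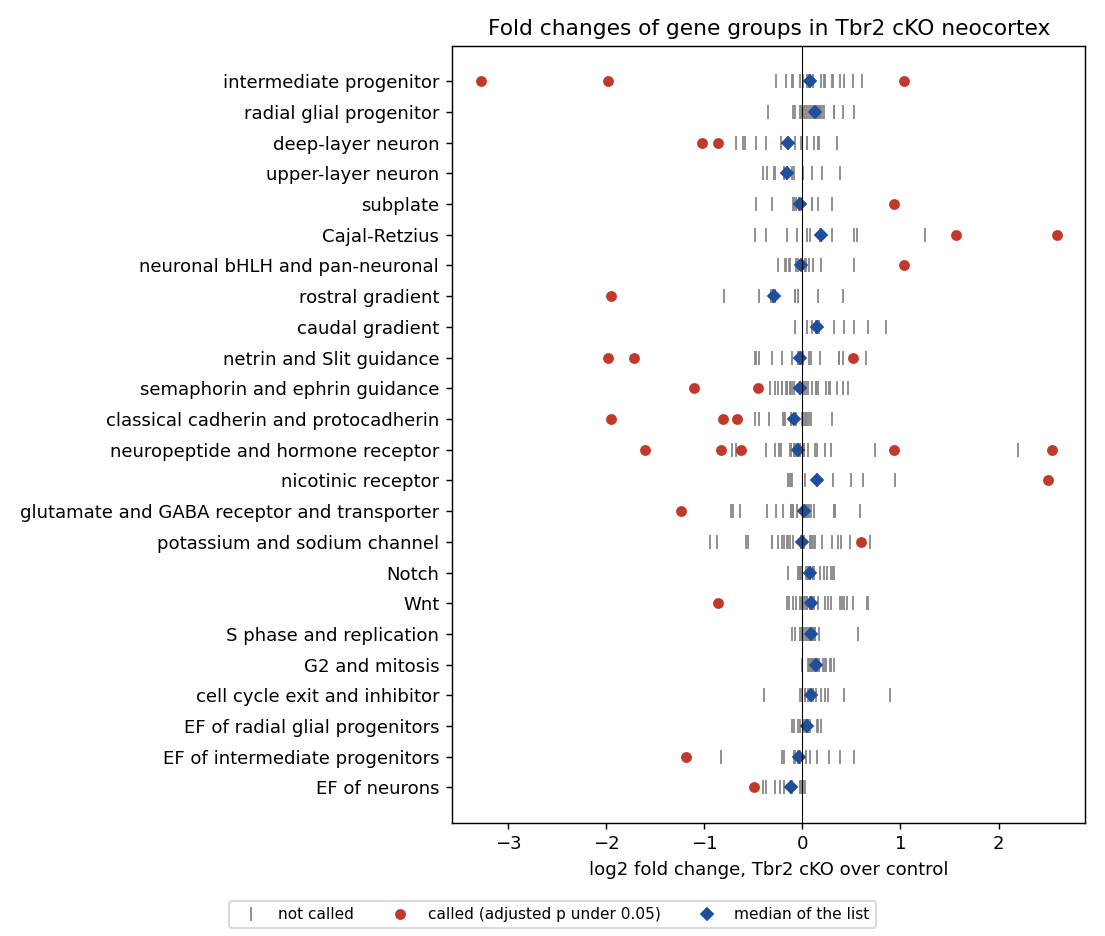
Log2 fold changes of Tbr2 cKO over control for the measured members of 24 groups of cortical cell type, patterning, pathway and epigenetic factor genes, with red circles for called genes, grey ticks for genes not called and a blue diamond for the median of the group. No group shown has more than 3 called genes in 1 direction, and their medians lie between -0.29 (rostral gradient) and 0.19 (Cajal-Retzius).

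The 2 Tbr2 cKO arrays disagreed in genes of tissue that surrounds the neocortex. The largest difference outside the Y chromosome was in *Ttr*, the transthyretin gene of the choroid plexus, with 12.57 in replicate 1 and 7.08 in replicate 2 of Tbr2 cKO, against 6.78, 7.01 and 6.99 in controls. *Dcn*, the gene of the meningeal proteoglycan decorin, had 10.95 and 8.65 in Tbr2 cKO and 7.24, 8.28 and 9.00 in controls, and the related *Lum* had 7.97 and 5.41 in Tbr2 cKO and 5.78 to 5.87 in controls. Replicate 1 thus stood apart and replicate 2 lay near or within the range of controls. *Dcn* was also high in the 4 Tbr1 KO arrays, at 9.96 to 10.28, where the mean of the meningeal markers was only 7.84 to 7.95. Its level therefore did not follow those markers in every genotype. The mean changes of these genes, 2.90 for *Ttr*, 1.62 for *Dcn* and 0.88 for *Lum*, are averages over arrays that differ by 5.49, 2.30 and 2.55, and none was called. *Sulf1*, *Islr* and *Slc7a11* followed the same pattern, at 9.28, 10.30 and 8.17 in replicate 1 and at 6.69, 8.01 and 6.04 in replicate 2.

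The whole marker lists showed this too. Of 17 meningeal genes, 16 were higher in Tbr2 cKO replicate 1 than in replicate 2, 6 of them by more than 1, and their mean was 8.69 and 7.80 in Tbr2 cKO, against 7.67, 7.80 and 7.91 in controls. Of 18 hem and choroid plexus genes, 17 were higher in replicate 1, 4 of them by more than 1, and their mean was 8.58 and 7.61 in Tbr2 cKO and 7.23, 7.52 and 7.88 in controls. Over all genes tested, 6590 of 14860 were higher in replicate 1, 65 of them by more than 1. Endothelial genes had means of 9.13 and 8.88 in Tbr2 cKO and 8.85 to 8.91 in controls, and pericyte genes 8.71 and 8.42 in Tbr2 cKO and 8.37 to 8.41 in controls. In these 4 lists replicate 1 lay above all controls and replicate 2 lay within or next to their range, whereas the microglial mean of 7.56 and 7.47 in Tbr2 cKO lay within that of controls (7.46 to 7.57). Both mutant embryos lay above all controls in the mean of the erythroid genes, at 8.53 and 8.55 in Tbr2 cKO and 8.35 to 8.39 in controls, and in that of the 8 thalamic genes, at 8.24 and 8.37 in Tbr2 cKO and 7.89, 7.95 and 8.23 in controls. The thalamic list shares *Lhx9* and *Barhl2* with the lists above, and its *Olig3*, a bHLH factor gene, had 7.75 and 8.20 in Tbr2 cKO and 6.56 to 7.13 in controls (1.05, SE 0.24, adjusted p = 0.0943). Both lay below all controls in the mean of the GABAergic and subpallial genes, at 8.86 and 8.89 in Tbr2 cKO and 9.03 to 9.16 in controls. No gene of any of these lists was called, and the part of erythroid, thalamic and GABAergic cells in the results was not tested.

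Among the members of these lists with the smallest p, *Crabp2*, a retinoic acid binding protein gene of the meninges, had 9.29 and 8.81 in Tbr2 cKO and 7.77 to 8.17 in controls, so that it was higher in both mutants, and *Lama1*, a laminin gene, had 9.22 and 8.84 in Tbr2 cKO and 8.72 to 8.83 in controls. *Folr1*, a folate receptor gene of the choroid plexus, had 8.11 and 7.30 in Tbr2 cKO and 6.82 to 7.33 in controls, and *Acta2*, the smooth muscle actin gene, had 8.50 and 7.38 in Tbr2 cKO and 7.27 to 7.43 in controls, with replicate 1 alone above the controls in both. Changes were 0.22 and 0.33 for the endothelial genes *Egfl7* and *Cdh5*, 0.26 for *Pdgfrb* of pericytes, -0.29 and -0.16 for *Fcrls* and *Trem2* of microglia, 0.48 and 0.25 for *Hba-x* and *Rhag* of erythroid cells, -0.39 and -0.34 for *Npas1* and *Ackr3* of the GABAergic list, and 0.70 for *Prox1* of the medial pallium.

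**Figure D3:**
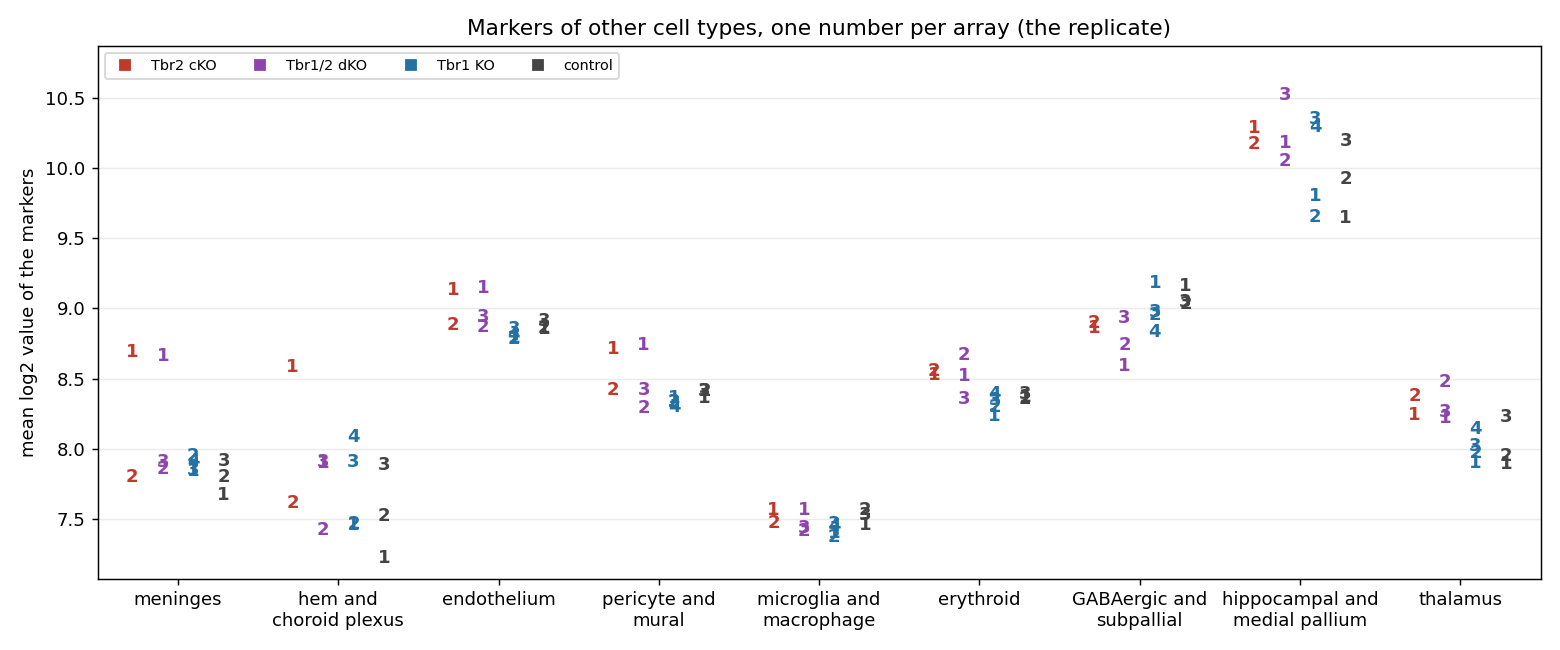
Mean log2 value of the markers of 9 other cell types or tissues in each of the 12 arrays, with each array drawn as its replicate number and coloured by genotype. Tbr2 cKO replicate 1 is above all controls for meninges (8.69) and for hem and choroid plexus (8.58), Tbr2 cKO replicate 2 is not (7.80 and 7.61), and Tbr1/2 dKO replicate 1 has a similar meningeal mean of 8.66. For thalamus both Tbr2 cKO embryos (8.24 and 8.37) are above all controls, of which replicate 3 is closest (8.23).

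Over all genes, 77 (0.518%) differed by more than 1 between the 2 Tbr2 cKO arrays, 65 higher in replicate 1 and 12 in replicate 2. Only 9 of the 77 had a mean value above the median of all genes. Between pairs of controls 49, 52 and 58 genes differed by as much, and the SD of the differences was 0.23 for the mutants and 0.20 to 0.23 for the controls. The 65 genes included 6 meningeal, 4 hem and choroid plexus and 2 Y-linked genes, and 19 olfactory, vomeronasal or trace amine receptor genes, a class that made up 27 of the 38 genes higher in control replicate 2 than in control replicate 1. *Eif2s3y*, on the Y chromosome, had 11.02 and 4.72 in Tbr2 cKO and 10.93, 5.07 and 10.49 in controls, so that embryos of both sexes were in both groups, and *Kdm5d* followed it with 9.85 and 5.68 in Tbr2 cKO and 9.82, 5.52 and 9.60 in controls. With the mean of the Y-linked genes as a covariate 83 genes were called, 80 of them among the 97. The genes higher in replicate 2 were led by *Taar7b*, *Capn11* and *Gsta4*, with differences of -2.60, -2.48 and -1.76 (replicate 1 minus replicate 2), and the controls spread as well, from 9.55 to 11.19, from 6.18 to 7.61 and from 7.72 to 9.92. They were followed by *Polr2h*, *Nr1h5*, *Hacd1*, *Olfr374* and *Magea9-ps*, with differences of -1.39, -1.29, -1.14, -1.12 and -1.09. None of the 12 was a meningeal or hem marker.

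None of the 77 genes was called, and 4 had an unadjusted p under 0.05. A difference between the mutant arrays adds to the spread in the fit, so that this count, and the small differences among called genes, follow in part from how genes are called and do not show that the calls are independent of the surrounding tissue. None of the 97 called genes was in a surrounding-tissue list. Among the 97, the difference between the mutant arrays had a median size of 0.10, exceeded 0.5 in *Eomes* (0.98) and in the homeobox gene *Uncx* (8.88 and 9.51 in Tbr2 cKO, against 8.07 to 8.37 in controls), and was smaller elsewhere. With the meningeal mean as a covariate, 50 genes were called, 46 of them among the 97. With the hem and choroid plexus mean as a covariate, 51 genes were called, 43 of them among the 97, and 41 of the 97 were called with each of the 2 covariates. The fold changes of *Unc5d* were -2.06 and -2.00, those of *Cdh8* -1.96 and -1.84 and those of *Ebf3* 2.57 and 2.67 with the meningeal and the hem covariate.

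**Figure D4:**
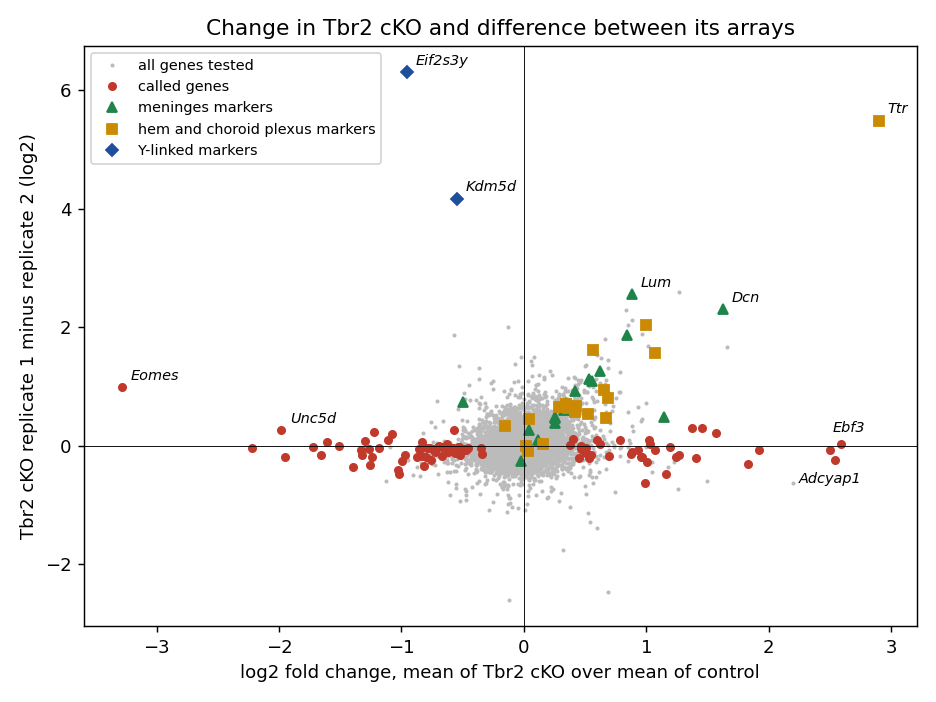
Difference between the 2 Tbr2 cKO arrays (replicate 1 minus replicate 2, log2, vertical axis) against the log2 fold change of Tbr2 cKO over control (horizontal axis) for all 14860 genes (grey), called genes (red) and the markers of meninges, hem and choroid plexus and the Y chromosome. Called genes lie within 0.5 of 0 on the vertical axis, apart from *Eomes* at 0.98 and *Uncx* at -0.62, and the markers rise to 5.49 (*Ttr*) and 6.31 (*Eif2s3y*).

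Loss of Tbr2 can be seen a second time in these arrays, in embryos that lack Tbr1, by comparing 3 Tbr1/2 dKO with 4 Tbr1 KO embryos. The comparison shares no array with that of Tbr2 cKO and control, although both use 1 estimate of the spread. It called 185 genes (1.24%), 89 higher (0.599%) and 96 lower (0.646%). With the replicate number as a block it called 77 genes, 70 of them among the 185. Of the 37 genes that rose in Tbr2 cKO, 37 had a positive change in the Tbr1-null embryos and 30 were called there as higher. Of the 60 that fell, 55 had a negative change and 33 were called as lower. With the block 24 of the 37 and 19 of the 60 were called in the same direction. No gene was called in opposite directions in either fit. The median change of the 37 genes was 0.96 in Tbr2 cKO and 0.76 in the Tbr1-null embryos, and that of the 60 genes was -0.79 and -0.46. These medians are a description, since the genes were selected on the first comparison.

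*Eomes*, *Unc5d*, *Cdh8* and *Robo2* changed by -3.34, -2.28, -1.87 and -2.21 in the Tbr1-null embryos, and *Adcyap1*, *Ebf3* and *Chrna3* by 2.21, 1.61 and 1.46, all called with and without the block. *Unc5d* had values of 8.31, 8.37 and 8.25 in Tbr1/2 dKO, against 10.45 to 10.78 in Tbr1 KO. *Ebf3* had 12.74, 12.75 and 12.54 in Tbr1/2 dKO and 10.67 to 11.57 in Tbr1 KO, so that its level without Tbr1 alone was already above that of controls. *Cbln2* had 9.54, 10.29 and 9.35 in Tbr1/2 dKO and 7.52 to 7.94 in Tbr1 KO, a change of 1.95 (adjusted p = 0.00049).

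The difference between both effects was tested directly, and 4 genes were called (0.0269%), *Mc4r*, *Rgs6*, *Bcl6* and *Lpl*, the gene of lipoprotein lipase. *Mc4r* was called in 22 of 23 alternatives, but *Rgs6* in 6 of 22, *Lpl* in 5 of 23 and *Bcl6* in 5 of 22, and with the replicate number as a block 0 genes were called. All 4 fell in Tbr2 cKO, and had changes of 0.41, -0.10, -0.38 and 0.06 in the Tbr1-null embryos. *Mc4r* had 8.72, 8.50 and 8.31 in Tbr1/2 dKO and 7.85 to 8.27 in Tbr1 KO, all below the Tbr2 cKO values of 10.06 and 9.99. *Rgs6* had 7.06, 6.82 and 6.93 in Tbr1/2 dKO and 6.88 to 7.14 in Tbr1 KO, against 7.57 and 7.94 in Tbr2 cKO. *Drd1* and *Lrrtm3* were similar, with changes of 0.33 and -0.05, but their differences were not called over all genes. At an unadjusted p under 0.05 the effects differed in 38 of the 97 genes, 28 that fell and 10 that rose, beside 3.43% of all genes tested. The genes were selected on 1 of the effects, which by itself raises this share.

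**Figure D5:**
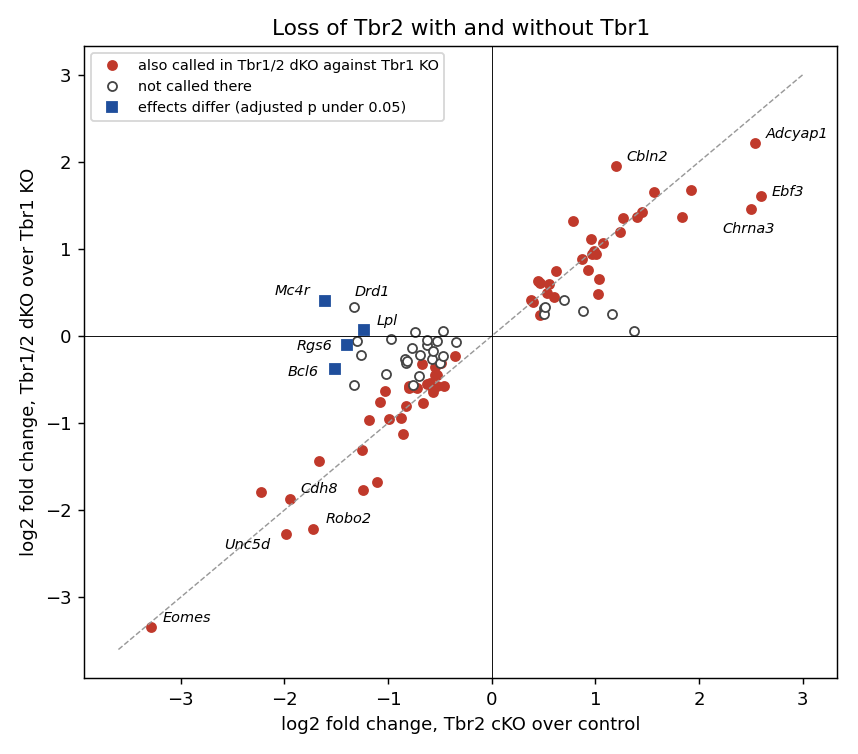
Log2 fold change after loss of Tbr2 for the 97 called genes in embryos with Tbr1 (Tbr2 cKO over control, horizontal axis) and without it (Tbr1/2 dKO over Tbr1 KO, vertical axis), with a dashed line at equal changes. Red points are called in both comparisons (63 genes, 43 with the replicate block), open points in the first only, and blue squares are the 4 genes whose effects differ at an adjusted p under 0.05, a call that held in 22 of 23 alternatives for *Mc4r* (-1.60 and 0.41) and in 5 or 6 for each of the others.

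Promoter windows of the called genes were searched for the T-box motif TCACACC and its reverse complement GGTGTGA, to show where the letters of this motif stand near genes that changed. The windows run from 250 bases before to 50 after each start site in RefSeq (build GRCm38.p6), and a match is not evidence of binding. Of the 37 genes that rose, 29 had a window and 2 of these (6.90%) held the motif, and of the 60 that fell, 40 had a window and 2 (5%) held it, against 527 of 11869 tested genes with a window (4.44%) and 3.98% of all 32851 windows. The 4 genes were *Ebf1* and the follistatin-like gene *Fstl5* (0.53, SE 0.08, adjusted p = 0.0139), which rose, and *Lratd1* (-1.26, SE 0.21, adjusted p = 0.0227) and the heat shock protein gene *Dnajb5* (-0.35, SE 0.07, adjusted p = 0.043), which fell. The windows of *Ebf1* (chr11:44619978-44620277, plus strand), *Fstl5* (chr3:76075333-76075632, plus strand) and *Lratd1* (chr12:14151989-14152288, minus strand) are shown with the motif in capitals, which begins 78, 26 and 217 bases before the start site.
Ebf1: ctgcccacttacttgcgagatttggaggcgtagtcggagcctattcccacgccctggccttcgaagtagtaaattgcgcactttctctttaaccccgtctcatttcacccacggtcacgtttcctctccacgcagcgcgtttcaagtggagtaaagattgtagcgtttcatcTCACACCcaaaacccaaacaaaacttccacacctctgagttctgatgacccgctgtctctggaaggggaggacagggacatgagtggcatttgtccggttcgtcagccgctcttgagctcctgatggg
Fstl5: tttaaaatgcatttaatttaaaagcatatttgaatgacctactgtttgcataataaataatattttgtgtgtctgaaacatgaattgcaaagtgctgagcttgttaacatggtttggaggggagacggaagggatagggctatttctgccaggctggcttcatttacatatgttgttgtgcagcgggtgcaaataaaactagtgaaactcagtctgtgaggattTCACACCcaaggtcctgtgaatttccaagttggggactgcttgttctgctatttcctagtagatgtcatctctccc
Lratd1: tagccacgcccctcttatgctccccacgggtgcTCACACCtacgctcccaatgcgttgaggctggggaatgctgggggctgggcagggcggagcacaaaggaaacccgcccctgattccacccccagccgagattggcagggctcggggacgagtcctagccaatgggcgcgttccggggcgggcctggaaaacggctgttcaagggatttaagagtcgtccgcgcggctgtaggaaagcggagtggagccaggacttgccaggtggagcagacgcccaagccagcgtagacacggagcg
*Lratd1* had values of 8.98 and 9.05 in Tbr2 cKO and 10.47, 10.45 and 9.91 in controls. In the Tbr1-null embryos *Ebf1* and *Fstl5* rose again, by 1.66 and 0.50 (not called with the replicate block, adjusted p = 0.0593 for each), and *Lratd1* had a change of -0.22 that was not called.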

How the data were processed

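RNA from the neocortex of single E14.5 embryos was hybridized to Affymetrix Mouse Exon 1.0 ST arrays. The deposited values are log2 intensities that the authors made by RMA with the package oligo. Their versions were not stated in the sources used here. Scanner files were not analysed. Of 23332 probesets, 14996 have 1 gene symbol in the platform annotation, 14941 of them in the RefSeq gene table, while 1019 have several and 7317 none. Where several probesets share a symbol (135 genes), the brightest on average stands for the gene. Array medians were 8.15 to 8.25, and precision is limited by how few arrays there are.

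All 12 arrays entered 1 linear model of the 4 genotypes in limma 3.58.1 (lmFit and eBayes, R 4.3.3), with 8 residual and 2.89 prior degrees of freedom, and p-values were adjusted over 14860 genes. An exact permutation test of 2 arrays against 3 cannot give a two-sided p below 0.2. The fit was tested on simulated data with independent errors. These had no shared deviations between arrays and no added surrounding tissue, so that the fit was not tested under such conditions. Same-numbered Tbr1/2 dKO and Tbr1 KO arrays deviated together from their group means (correlations over genes of 0.178, 0.193 and 0.377), so that fits with the replicate number as a block are given beside that comparison. Arrays with unlike numbers were not compared, and the sources used here name no shared litter or batch. Whether the numbers mark real pairs was therefore not tested. Same-numbered Tbr1 KO and control arrays had correlations of 0.195, 0.0316 and 0.127. The 2 such pairs of Tbr2 cKO and control arrays had correlations of -0.0858 and -0.099. The other same-numbered arrays had correlations from -0.12 to 0.105. Python 3.11.15, pandas 2.3.3, numpy 2.4.6 and matplotlib 3.10.9 made the summaries and plots.

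The comparison, the gene lists and the rules were chosen with earlier results of these data known. The genes named are *Eomes*, *Pax6*, *Tbr1* and *Insm1*, and the 12 called genes that changed most in each direction with both mutant arrays beyond all controls. They also include up to 4 called members of each list or, without any, up to 2 members with the smallest p. The 8 genes with the largest difference between the mutant arrays in each direction are named too. Other genes, such as *Ebf2*, *Reln*, *Tacr3*, *Etv5*, *Nxph3*, *Uncx*, *Lpl*, the neighbours of *Chrna3*, the genes with a T-box motif and control markers of a list, were added once their values were known. Alternatives were other probeset summaries, a filter on dim genes, 2 normalizations, another prior, array weights, fewer groups, a replicate block, 3 covariates, other thresholds and leaving out each array.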

Additional observations from a re-analysis of the deposited data

Results flagged for a closer look

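In 4 genes the effect of Tbr2 loss differed between embryos without and with Tbr1 by an interaction term in limma. The difference (the change in Tbr1/2 dKO against Tbr1 KO minus that in Tbr2 cKO against control) was 2.01 for *Mc4r* (SE 0.18, adjusted p = 0.00431), 1.30 for *Rgs6* (SE 0.16, adjusted p = 0.042), 1.29 for *Lpl* (SE 0.17, adjusted p = 0.0436) and 1.13 for *Bcl6* (SE 0.15, adjusted p = 0.0436). *Lpl* had 8.73 and 8.50 in Tbr2 cKO and 9.74, 9.75 and 10.05 in controls, and *Bcl6* had 7.94 to 8.0 in Tbr1/2 dKO and 8.09 to 8.49 in Tbr1 KO. Over the alternatives the adjusted p ran from 0.00126 to 0.0634 for *Mc4r*, which was called in 22 of 23. It ran from 0.0107 to 0.262 for *Rgs6* (6 of 22), from 0.0195 to 0.341 for *Lpl* (5 of 23) and from 0.0178 to 0.211 for *Bcl6* (5 of 22).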

How the results depend on the processing

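The count of 97 genes in Tbr2 cKO was 250 with array weights, 62 with only the compared groups, 50 and 51 with the meningeal and the hem covariate, 164 at an adjusted p under 0.1, 1493 at an unadjusted p under 0.05, and 28 to 154 without 1 array (43 without control replicate 1, 55 without replicate 2 or 3, 154 without Tbr1/2 dKO replicate 2). The count of 185 in the Tbr1-null embryos was 66 with only the compared groups, 283 at an adjusted p under 0.1, 1625 at an unadjusted p under 0.05 and 97 to 175 without 1 array (105, 97, 114 and 121 without Tbr1 KO replicates 1 to 4, and 102 without Tbr1/2 dKO replicate 3). The 4 genes whose effects differ became 2 among genes above the median mean and with probesets of several symbols added, 1 after repeated quantile normalization or with the meningeal, hem or Y-linked covariate, and 1 to 6 without 1 array. With the replicate number as a block the counts were 52, 77 and 0. Of the 97 genes, 46 were called with the block. The 77 genes in which the mutant arrays differ became 9 among genes above the median mean, so that most of the 77 were among the dimmer genes. No called gene changed sign, which was fixed in advance where a mutant or control array was left out. Of the 97, 21 were called in each alternative that tested them. Of the 38 named called genes, 22 lost the call in at least 1. The cause of each change was not tested.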

Other observations

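Several called genes lie outside the lists and were picked after their values had been seen. *Th*, the gene of tyrosine hydroxylase in catecholamine synthesis, had 8.50 and 8.63 in Tbr2 cKO, against 7.55, 7.63 and 7.89 in controls (0.87, SE 0.14, adjusted p = 0.0144), and rose by 0.88 in the Tbr1-null embryos. *St18*, a zinc finger factor gene, had 11.51 and 11.70 in Tbr2 cKO and 10.55 to 10.78 in controls (0.96, SE 0.17, adjusted p = 0.0333), and *Ncam2*, a cell adhesion molecule gene, had 10.02 and 10.13 in Tbr2 cKO and 9.12 to 9.25 in controls (0.88, SE 0.14, adjusted p = 0.0198). *Rgmb*, a BMP co-receptor gene, rose by 0.55 in Tbr2 cKO and by 0.60 in the Tbr1-null embryos. *Th*, *St18* and *Ncam2* were not called without Tbr2 cKO replicate 1 (adjusted p = 0.118, 0.204 and 0.172) or replicate 2 (0.135, 0.211 and 0.149). The Notch co-activator gene *Maml3* and the co-repressor gene *Tle1* rose by 0.47 and 0.46 in Tbr2 cKO, whereas *Dtx1*, a Notch-associated ubiquitin ligase gene, fell by 0.55. *Rgmb*, *Maml3*, *Tle1* and *Dtx1* each lost the call in at least 1 alternative. *Dtx1* was not called with the meningeal or the hem covariate (adjusted p = 0.111 and 0.16).

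Among decreases, *Ngfr*, the p75 neurotrophin receptor gene, had 8.74 and 8.89 in Tbr2 cKO and 9.93, 9.65 and 9.77 in controls (-0.97, SE 0.12, adjusted p = 0.00405), with a change of -0.03 in the Tbr1-null embryos, and was not called without Tbr2 cKO replicate 1 (adjusted p = 0.0842). The heparan sulfate sulfotransferase genes *Hs3st1* and *Hs6st2* fell by 0.83 and 0.72, and the leucine-rich repeat genes *Lrrtm4* and *Lrrn3* by 0.74 and 0.60, all of them called in the Tbr1-null embryos too, although *Lrrn3* was not with the replicate block (adjusted p = 0.0507). *Oog2* rose by 1.16, with 4.33 and 4.80 in Tbr2 cKO and 3.03 to 3.63 in controls, and changed by 0.25 in the Tbr1-null embryos. *Hs3st1*, *Hs6st2*, *Lrrtm4*, *Lrrn3* and *Oog2* each lost the call in Tbr2 cKO in at least 1 alternative. *Hs6st2* and *Lrrn3* were called with neither the meningeal nor the hem covariate.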
